A study of Homo sapiens with 6 samples.

Results

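The genes described here are 9 core genes of the Polycomb repressive complexes, EZH1, EZH2, SUZ12, EED, RING1, RNF2, CBX2, CBX7 and CBX8, followed in a human cell line with and without an shRNA against SETD2. They were picked out by symbol, and 9 of the 9 were found among 15897 genes listed with an expression value. Each of the 9 passed the filter on low values, a mean of at least 0.5 FPKM over the 6 libraries, as did 14068 genes in all. FPKM counts sequenced fragments per kilobase of transcript, scaled to the total mapped fragments of the library, so levels of different genes can be set side by side per length.

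Polycomb proteins keep developmental and cell-identity genes silent by marking their chromatin. Polycomb repressive complex 2 (PRC2) methylates lysine 27 of histone H3 through either EZH1 or EZH2, which need the partner subunits EED and SUZ12, and EZH2 is the form typical of dividing cells. Polycomb repressive complex 1 (PRC1) attaches ubiquitin to histone H2A through RING1 or RNF2, and its canonical form binds the PRC2 mark through a CBX protein. SETD2 writes trimethylation of lysine 36 of histone H3, a mark of transcribed gene bodies on which PRC2 works poorly, and EZH2 is among the most studied chromatin regulators in lung cancer.

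The study sequenced total RNA from 6 libraries labelled as H1650, a human lung adenocarcinoma line. In the labels 3 libraries are control, with a wild-type genotype, and 3 are shSETD2, and all carry the same cell line and tissue label. The study made its SETD2-depleted H1650 cells with lentiviral shRNA constructs, 3 in number, and the labels do not say whether the 3 shSETD2 libraries are separate constructs or cultures of 1 of them. Nothing in the labels ties the libraries of a group to separate cultures, so the p-values measure the spread between these libraries, which may be technical.

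SETD2 itself stood at 18.0, 10.2 and 17.6 FPKM in control libraries, against 8.97, 8.09 and 12.2 with shSETD2. The groups overlapped, and the log2 fold change of -0.58 ± 0.24 (SE, n = 3 per group) did not pass the test (limma, adjusted p = 0.0641), so the targeted gene does not by itself separate the labels. The test was passed without control replicate 2, at -0.83 (adjusted p = 6.66e-03), and without shSETD2 replicate 3, at -0.73 (adjusted p = 0.0420), and median ratio scaling gave -0.27 (adjusted p = 0.343). Across all genes tested the groups stood far apart, with Pearson's r of log2 expression of about 0.98 to 0.99 between libraries of a group and about 0.70 to 0.71 between groups. Of 13 lung epithelium markers 4 were listed, with 3 at a mean of 1 FPKM or more in control and 2 in shSETD2 libraries. The marker NKX2-1 was at a mean of 1.65 FPKM in control libraries and listed at 0 in each shSETD2 library. On average ABCA3 went from 13.5 in control to 8.32 FPKM in shSETD2 libraries and FOXA1 from 2.39 to 0.452. LAMP3 went the other way, from 0.584 to 1.23 FPKM. The surfactant genes SFTPB, SFTPC, SFTPA1 and SFTPA2 and NAPSA were not among the listed genes. The summed FPKM of the lung markers ran from 17.2 to 18.9 in control and from 9.80 to 10.2 in shSETD2 libraries. That of 10 general epithelial markers, 8 of them listed, ran from 14.2 to 16.1 and from 402 to 455, with keratin KRT18 at 10.04 and 255 FPKM on average while CDH1 was at 1.27 and 0.0120. The sum of 7 mesenchymal markers ran from 115 to 130 and from 170 to 180, and that of 11 embryonic kidney markers, 10 of them listed, from 46.8 to 49.6 and from 60.2 to 71.3. The part of these differences in the results below was not tested, and groups are named as labelled. Whether all 6 libraries come from the labelled line was not tested, so a difference between the groups cannot be told apart from a difference between cell populations. In such bulk samples, fewer cells of a type and less RNA per cell cannot be told apart.

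Among the 9 genes, 6 were lower in shSETD2 libraries (EZH2, EZH1, EED, RNF2, CBX2 and CBX8), 0 were higher, and SUZ12, RING1 and CBX7 did not pass the test (limma on log2(FPKM + 1), Benjamini-Hochberg over all genes tested, adjusted p under 0.05). The count has to be read against a very large background, since 78.6% of all genes tested were called in either direction, 51.8% lower and 26.8% higher. The same 6 genes had no overlap between the groups, again all lower, a state shared by 80.9% of genes tested in either direction and by 53% in the lower one. Their median log2 fold change was -0.39, beside -0.29 over all genes tested. Because the median of all genes lay below 0, the scaling of the libraries bears on every small change below. After median ratio scaling, which brought that median to -0.03, 4 of the 9 genes were lower (EZH1, RNF2, CBX2 and CBX8) and 2 higher (SUZ12 and CBX7), beside 39.1% and 37.1% of all genes (76.2% in either direction).

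**Figure D1:**
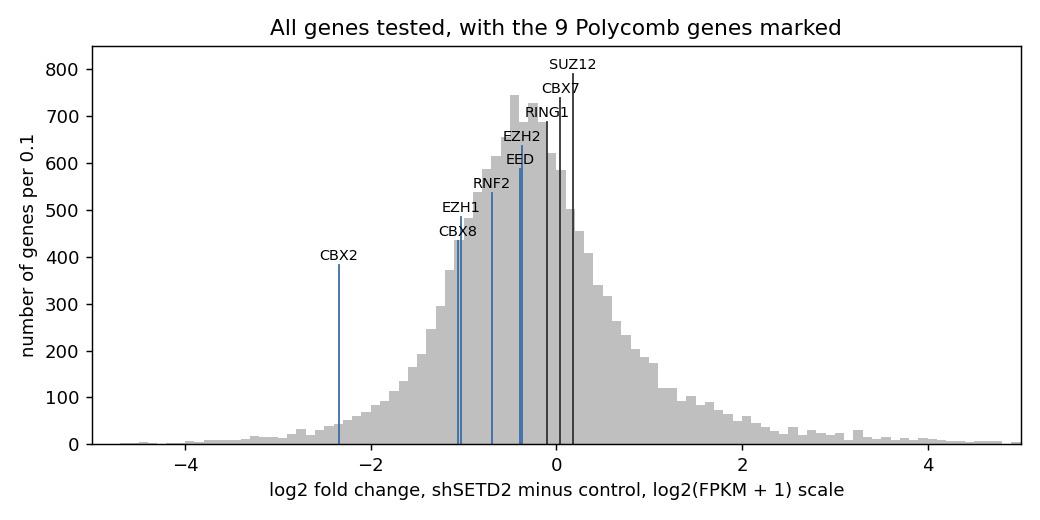
Number of genes tested in each interval of 0.1 of the log2 fold change, shSETD2 minus control, on the log2(FPKM + 1) scale (grey), with a vertical line at each of the 9 Polycomb genes, blue where the gene was called lower and black where it was not called. CBX2 stands at -2.34 in the lower tail while EZH2 at -0.37 and EED at -0.39 lie near the median of all genes, and 80 genes beyond 5 in either direction are left out of the axis.

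CBX2 was the member that moved most, and 2.24% of all genes tested had a lower log2 fold change. CBX8 and EZH1 followed, with 16.98% and 18.0% of genes below them, and then RNF2 with 30.5%. EZH2 and EED lay in the middle of the distribution, with 46.2% and 45.1% of genes below them. For RING1, CBX7 and SUZ12 the shares were 59.4%, 65.7% and 70.7%.

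**Figure D2:**
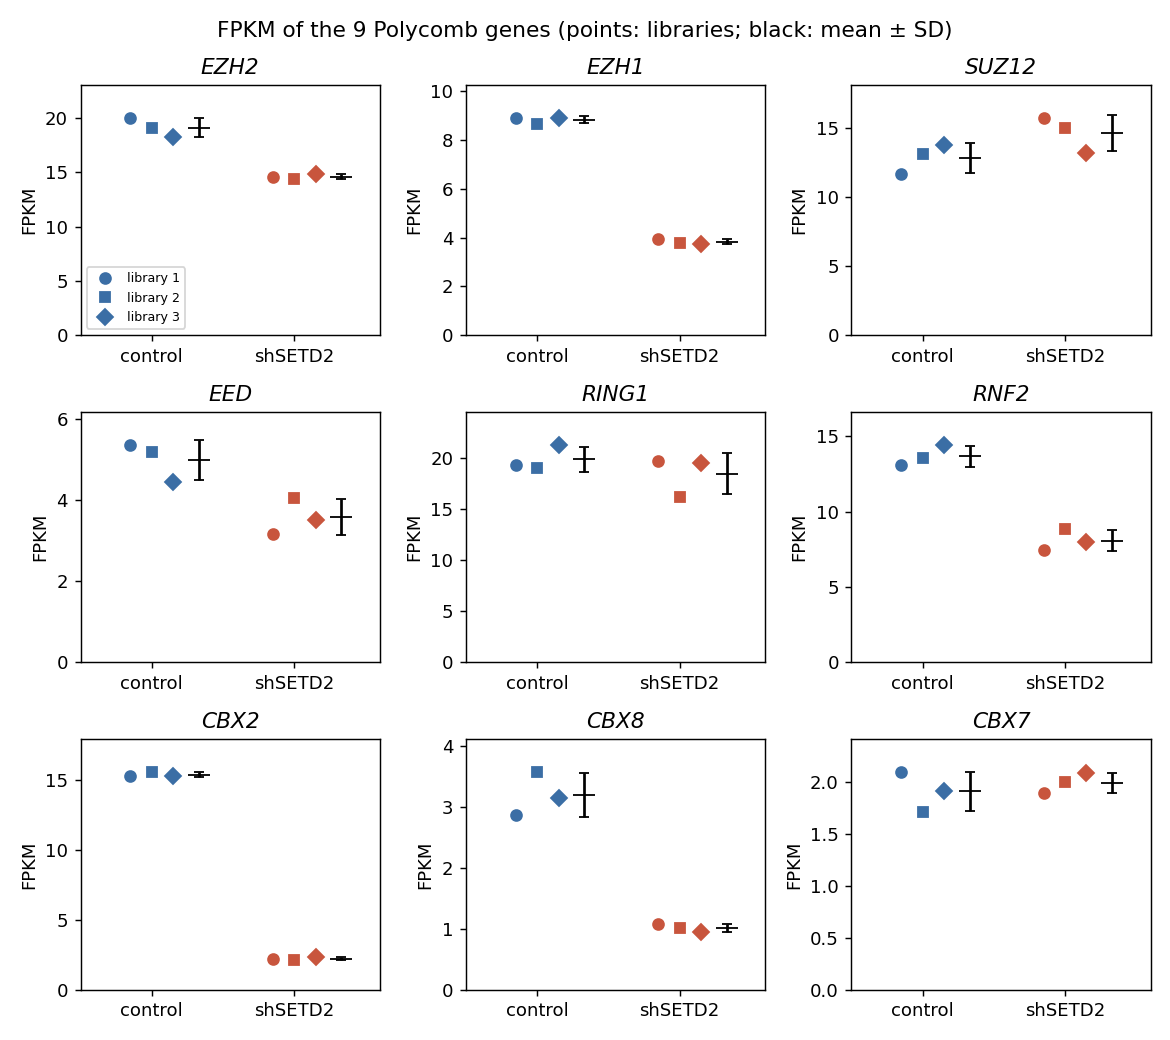
FPKM of each of the 9 Polycomb genes in the 3 control and 3 shSETD2 libraries, a panel per gene on a linear axis from 0, with coloured points for libraries and the black mark and bar for the mean ± SD. The points of CBX2, CBX8, EZH1, RNF2, EZH2 and EED separate by group, and those of SUZ12, RING1 and CBX7 overlap.

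Of the PRC2 core, the 2 alternative methyltransferases were both lower, EZH1 by a log2 fold change of -1.02 and EZH2 by one of -0.37. EZH2 (ENSG00000106462.10_3, GRCh37 chr7:148504475-148581413, minus strand, 20 exons in its canonical transcript) was at 20.04, 19.1 and 18.3 FPKM in control libraries, against 14.6, 14.4 and 14.8 in shSETD2 libraries. Each shSETD2 library lay below each control library, by a modest step. The means were 19.1 ± 0.881 and 14.6 ± 0.230 FPKM (SD, n = 3 each), and the log2 fold change was -0.37 ± 0.047 (SE, 95% interval -0.48 to -0.26, limma, adjusted p = 3.74e-04). After median ratio scaling it was -0.05 (adjusted p = 0.344).

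EZH1 (ENSG00000108799.12_2, chr17:40852293-40897067, minus strand, 21 exons), the paralog that takes the place of EZH2 in many non-dividing cells, was at 8.88, 8.65 and 8.91 FPKM in control libraries. In shSETD2 libraries it was at 3.94, 3.800 and 3.75 FPKM. The groups were tight and far apart, at 8.82 ± 0.143 and 3.83 ± 0.0966 FPKM (SD, n = 3 each), 2.30-fold lower in shSETD2. Its log2 fold change was -1.02 ± 0.046 (SE, limma, adjusted p = 2.49e-06), and -0.74 after median ratio scaling (adjusted p = 1.15e-05).

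The ratio of EZH2 to EZH1 within a library does not depend on a factor that scales the whole library. It was 2.26, 2.20 and 2.05 in control libraries and 3.70, 3.78 and 3.95 in shSETD2 libraries, with no overlap. The means were 2.17 ± 0.106 and 3.81 ± 0.128 (SD, n = 3 each), a difference of 0.81 in the log2 ratio. The two-sided exact permutation test over libraries gave p = 0.1, the smallest that 3 libraries against 3 allow, and 0.118 after adjustment over the 13 ratios and shares computed. EZH2 was the more abundant transcript in both groups, and the summed FPKM of both enzymes went from 27.9 ± 0.888 to 18.4 ± 0.221 (SD, n = 3 each).

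**Figure D3:**
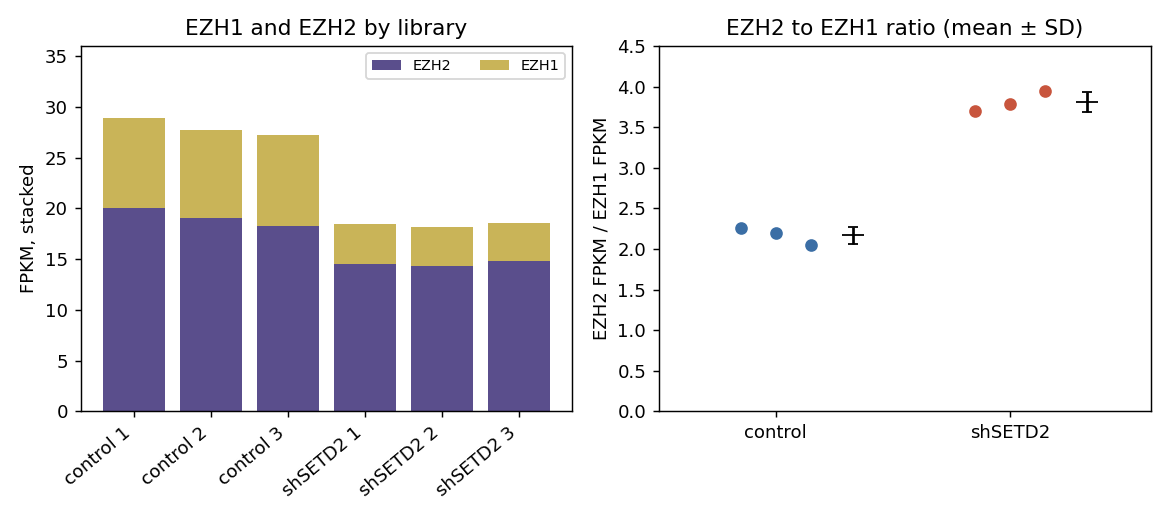
Left, stacked FPKM of EZH2 and EZH1 in each library, and right, the ratio of EZH2 FPKM to EZH1 FPKM within each library by group, with points for libraries and the black mark and bar for the mean ± SD. For the ratio, the control libraries sit between 2.05 and 2.26 and the shSETD2 libraries between 3.70 and 3.95.

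The other PRC2 core subunits differed from each other. SUZ12 (ENSG00000178691.10_2, chr17:30264037-30328064, plus strand, 16 exons), the scaffold that holds the catalytic core and the accessory subunits, was at 11.6, 13.1 and 13.7 FPKM in control and 15.7, 14.95 and 13.2 in shSETD2 libraries. The groups overlapped through the third shSETD2 library, and the means were 12.8 ± 1.07 and 14.6 ± 1.30 FPKM (SD, n = 3 each). The log2 fold change of 0.18 ± 0.085 (SE, 95% interval -0.03 to 0.38) did not pass the test (limma, adjusted p = 0.101). It passed after median ratio scaling, at 0.49 (adjusted p = 1.77e-03), after upper quartile scaling, at 0.22 (adjusted p = 0.0452), and without shSETD2 replicate 3, at 0.24 (adjusted p = 0.0378).

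EED (ENSG00000074266.19_3, chr11:85955586-85989855, plus strand, 12 exons), which binds the methyl mark and stimulates the enzyme, was at 5.35, 5.17 and 4.43 FPKM in control libraries, against 3.17, 4.04 and 3.52 in shSETD2 libraries. The groups did not overlap, though they came within a smaller distance of each other than those of EZH1. The means were 4.98 ± 0.491 and 3.57 ± 0.441 FPKM (SD, n = 3 each), with a log2 fold change of -0.39 ± 0.096 (SE, limma, adjusted p = 9.08e-03). The call was lost after median ratio scaling, at -0.12 (adjusted p = 0.292), and after quantile normalization, at -0.18 (adjusted p = 0.137).

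Read per SUZ12, the summed methyltransferases had a ratio of 2.19 ± 0.261 in control and 1.27 ± 0.125 in shSETD2 libraries (SD, n = 3 each), with no overlap (exact permutation p = 0.1). Read per EED, the same sum had a ratio of 5.63 ± 0.442 and 5.21 ± 0.679, and the libraries overlapped (exact permutation p = 0.4). These 2 ratios were chosen after the values were seen. Of these 2, only the ratio to SUZ12 separated the libraries by group.

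The promoters of the 2 methyltransferases and of SUZ12 are shown because these 3 genes of one complex had different calls, EZH2 and EZH1 lower and SUZ12 not called. The sequences are those of RefSeq on GRCh38.p14, another build than that of the gene positions above, and run from 250 bases before to 30 bases after the annotated start. Capitals mark E2F motifs (TTTCCCGC, TTTGGCGC or TTTCGCGC) and CCAAT motifs (CCAAT), each searched on both strands, so that a CCAAT on the other strand reads ATTGG. E2F factors drive genes of the cell cycle, and CCAAT is the motif of the factor NF-Y. EZH2 is given on the minus strand of chr7:148884262-148884541, EZH1 on the minus strand of chr17:42745011-42745290 and SUZ12 on the plus strand of chr17:31936757-31937036.
EZH2: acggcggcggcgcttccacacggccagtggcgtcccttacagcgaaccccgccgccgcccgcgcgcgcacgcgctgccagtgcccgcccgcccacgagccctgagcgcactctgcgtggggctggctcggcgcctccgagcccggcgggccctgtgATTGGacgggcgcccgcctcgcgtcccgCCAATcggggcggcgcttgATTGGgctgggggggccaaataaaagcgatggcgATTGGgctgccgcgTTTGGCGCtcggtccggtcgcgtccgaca
EZH1: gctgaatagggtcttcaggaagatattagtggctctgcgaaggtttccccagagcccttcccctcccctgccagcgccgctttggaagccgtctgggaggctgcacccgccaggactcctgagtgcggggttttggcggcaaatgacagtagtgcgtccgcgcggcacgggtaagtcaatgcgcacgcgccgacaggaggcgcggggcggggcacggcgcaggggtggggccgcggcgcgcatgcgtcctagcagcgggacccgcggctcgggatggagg
SUZ12: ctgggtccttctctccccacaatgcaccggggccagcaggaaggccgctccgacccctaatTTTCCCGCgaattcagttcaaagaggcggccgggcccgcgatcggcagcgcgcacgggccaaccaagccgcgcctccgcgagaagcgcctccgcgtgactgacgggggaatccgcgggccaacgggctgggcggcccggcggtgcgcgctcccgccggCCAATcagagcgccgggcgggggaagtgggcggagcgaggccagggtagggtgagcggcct
Within 250 bases before and 50 after the start, the EZH2 stretch held 1 E2F motif at base 2 after the start and 4 CCAAT motifs, at 94, 66, 47 and 13 bases before it, counted to the first base of each on the strand shown. SUZ12 held 1 of each, at 189 and 31 bases before the start, and EZH1 held 0 of either. Of 35116 RefSeq promoters of this length, 2.74% held an E2F motif, 34.6% a CCAAT motif and 0.991% at least 4 CCAAT motifs. GC content was 74.7% for EZH2, 67.0% for EZH1 and 73.0% for SUZ12, beside a median of 58.7% over all promoters. The table matched 7 of the 9 genes, with 2 entries for EZH2, and the other entry of EZH2 and those of RING1 and RNF2 held 0 of either motif while those of EED and CBX7 held 1 CCAAT motif each. The promoters of CBX2 and CBX8 were not analysed here. A match is a run of letters and not evidence of binding.

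Of the 2 ubiquitin ligases of PRC1, RNF2 was lower and RING1 did not pass the test. RNF2 (ENSG00000121481.10_2, chr1:185014496-185071740, plus strand, 7 exons), also called RING1B, was at 13.1, 13.5 and 14.4 FPKM in control libraries, against 7.43, 8.86 and 7.97 in shSETD2 libraries. No shSETD2 library came near the control range, and the means were 13.7 ± 0.695 and 8.08 ± 0.722 FPKM (SD, n = 3 each). The log2 fold change was -0.69 ± 0.072 (SE, limma, adjusted p = 1.38e-04), and -0.39 after median ratio scaling (adjusted p = 2.48e-03).

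RING1 (ENSG00000204227.4_2, chr6:33176272-33180499, plus strand, 7 exons) was at 19.3, 19.1 and 21.3 FPKM in control libraries, against 19.7, 16.2 and 19.6 in shSETD2 libraries. Of the shSETD2 libraries, 2 lay inside the control range and 1 below it. The means were 19.9 ± 1.24 and 18.5 ± 1.97 FPKM (SD, n = 3 each), with a log2 fold change of -0.10 ± 0.087 (SE, 95% interval -0.31 to 0.11, limma, adjusted p = 0.310). Its direction depended on the scaling, with 0.22 after median ratio scaling (adjusted p = 0.0669) and -0.22 after quantile normalization (adjusted p = 0.0462). The ratio of RING1 to RNF2, chosen after the values were seen, was 1.45 ± 0.0406 in control and 2.31 ± 0.428 in shSETD2 libraries (SD, n = 3 each), without overlap (exact permutation p = 0.1). The summed FPKM of both ligases was 33.6 ± 1.89 and 26.6 ± 1.31.

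The CBX genes encode the chromodomain subunits by which canonical PRC1 reads methylated histone H3, and each complex holds 1 of them. CBX2 (ENSG00000173894.10_2, chr17:77751931-77761782, plus strand, 5 exons) was at 15.2, 15.5 and 15.3 FPKM in control libraries, against 2.22, 2.14 and 2.30 in shSETD2 libraries. Both groups were tight and the gap was wide. The means were 15.3 ± 0.173 and 2.22 ± 0.0804 FPKM (SD, n = 3 each), 6.90-fold lower in shSETD2. On the log2(FPKM + 1) scale the change was -2.34 ± 0.046 (SE, 95% interval -2.45 to -2.23, limma, adjusted p = 8.29e-08), and -2.07 after median ratio scaling.

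CBX8 (ENSG00000141570.10_2, chr17:77765931-77775482, minus strand, 5 exons), the neighbour of CBX2 on chromosome 17, was at 2.87, 3.58 and 3.16 FPKM in control libraries, against 1.08, 1.01 and 0.950 in shSETD2 libraries. It too was lower in each shSETD2 library, from a level already below that of CBX2. The means were 3.20 ± 0.357 and 1.01 ± 0.0662 FPKM (SD, n = 3 each), 3.16-fold lower, with a log2 fold change of -1.06 ± 0.077 (SE, limma, adjusted p = 2.50e-05). Because CBX8 is low, the pseudocount of 1 shrinks its change, which was -1.65 with a pseudocount of 0.01. It was -0.85 after median ratio scaling and -0.69 after quantile normalization, and passed the test under both.

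CBX7 (ENSG00000100307.12_3, chr22:39516172-39548679, minus strand, 6 exons), known in stem cells and as a repressor of the CDKN2A locus, was at 2.10, 1.72 and 1.92 FPKM in control libraries, against 1.90, 2.00 and 2.09 in shSETD2 libraries. The groups overlapped over most of their range. The means were 1.91 ± 0.193 and 2.00 ± 0.0970 FPKM (SD, n = 3 each), with a log2 fold change of 0.04 ± 0.069 (SE, 95% interval -0.12 to 0.21, limma, adjusted p = 0.587). It passed the test as higher after median ratio scaling, at 0.26 (adjusted p = 0.0119), and after quantile normalization, at 0.41 (adjusted p = 2.52e-03), and was -0.01 without control replicate 2 (adjusted p = 0.938).

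Among the 3 CBX transcripts CBX2 made up most of the sum in control libraries, while CBX2 and CBX7 stood close together in shSETD2 libraries. CBX2 took 75.4%, 74.6% and 75.0% of their summed FPKM in control libraries and 42.7%, 41.6% and 43.1% in shSETD2 libraries. CBX7 took 10.4%, 8.24% and 9.44% in control libraries and 36.5%, 38.8% and 39.2% in shSETD2 libraries. CBX8 took 14.2%, 17.2% and 15.5% against 20.8%, 19.6% and 17.8%. None of the 3 shares overlapped between the groups. In percentage points the differences were -32.6 for CBX2, 28.8 for CBX7 and 3.76 for CBX8, each with an exact permutation p of 0.1, the smallest possible (0.118 after adjustment over the 13 ratios and shares). The sum itself was 20.5 ± 0.335 and 5.23 ± 0.101 FPKM (SD, n = 3 each), so the larger share of CBX7 stood beside CBX7 levels that overlapped between the groups and a smaller total.

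**Figure D4:**
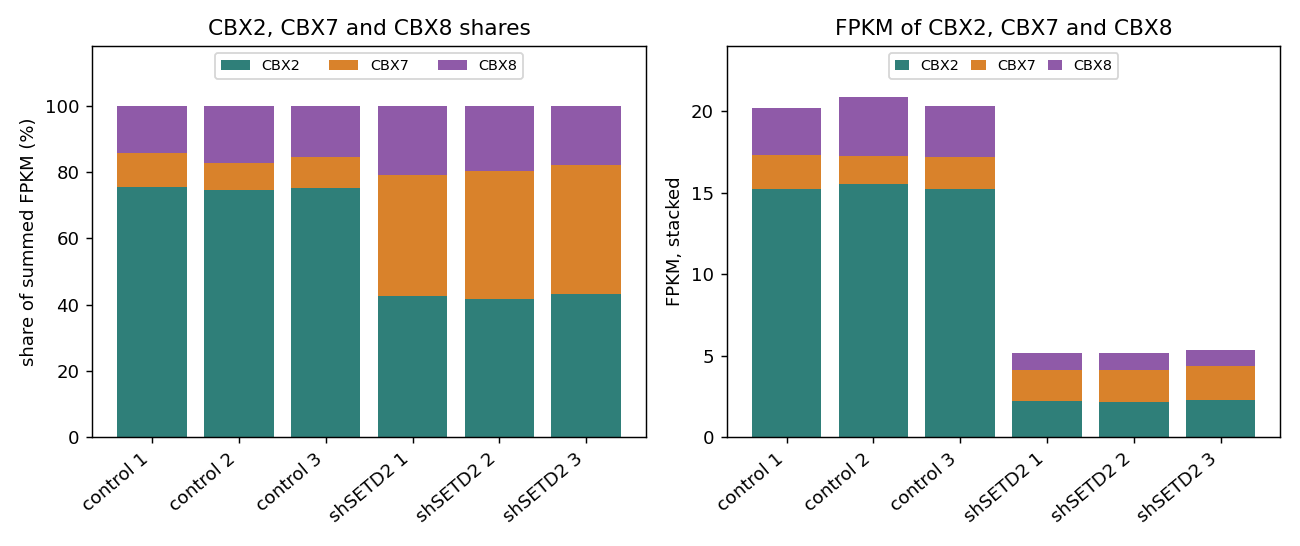
Left, share of CBX2, CBX7 and CBX8 in their summed FPKM, in percent, within each of the 3 control and 3 shSETD2 libraries, and right, the stacked FPKM of the same genes. CBX2 takes 74.6% to 75.4% in control and 41.6% to 43.1% in shSETD2 libraries, and CBX7 8.24% to 10.4% and 36.5% to 39.2%.

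These shares cover only the CBX genes among the 9. CBX6, another CBX gene of canonical PRC1, was at 33.6, 32.3 and 32.5 FPKM in control and 29.1, 26.9 and 29.2 in shSETD2 libraries, above each of the 3 in both groups. It was lower in each shSETD2 library, with a log2 fold change of -0.20 ± 0.045 (SE, limma, adjusted p = 6.18e-03). After median ratio scaling it was at 0.12 (adjusted p = 0.0529).

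The order of the 9 levels differed between the groups. In control libraries RING1 and EZH2 were highest and overlapped, followed by CBX2, then RNF2 and SUZ12, which overlapped, and then EZH1, EED, CBX8 and CBX7 in that order, each without overlap with the next. In shSETD2 libraries RING1 was highest, followed by SUZ12 and EZH2, which overlapped, then RNF2, then EZH1 and EED, which overlapped, and then CBX2, CBX7 and CBX8. CBX2 went from the third to the seventh place and SUZ12 from the fifth to the second.

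Copies and overlapping genes limit some of these values. The GRCh37 annotation holds the pseudogenes SUZ12P1 on chromosome 17, RNF2P1 on chromosome 9, EZH2P1 on chromosome 21 and EEDP1 on chromosome X, which were not analysed here, and how reads that match both a gene and its copy were divided is not given in the sources used here. Genes on the opposite strand overlap exons of EED and CBX7, and whether strand was used in counting is not stated.

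Beyond the 9 genes, 43 other genes of the Polycomb system were taken from a list written from knowledge of the complexes. All 43 were listed and 42 were tested, of which 24 were lower, 6 higher and 12 not called, with a median log2 fold change of -0.37. As for the 9 genes, these counts have to be read against 51.8% lower and 26.8% higher over all genes tested. After median ratio scaling 17 were lower and 14 higher, with a median of -0.08, beside 39.1% and 37.1% of all genes tested. EZHIP, an inhibitor of PRC2, was the gene not tested, at 1.11, 0.970 and 0.619 FPKM in control libraries and listed at 0 in each shSETD2 library.

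**Figure D5:**
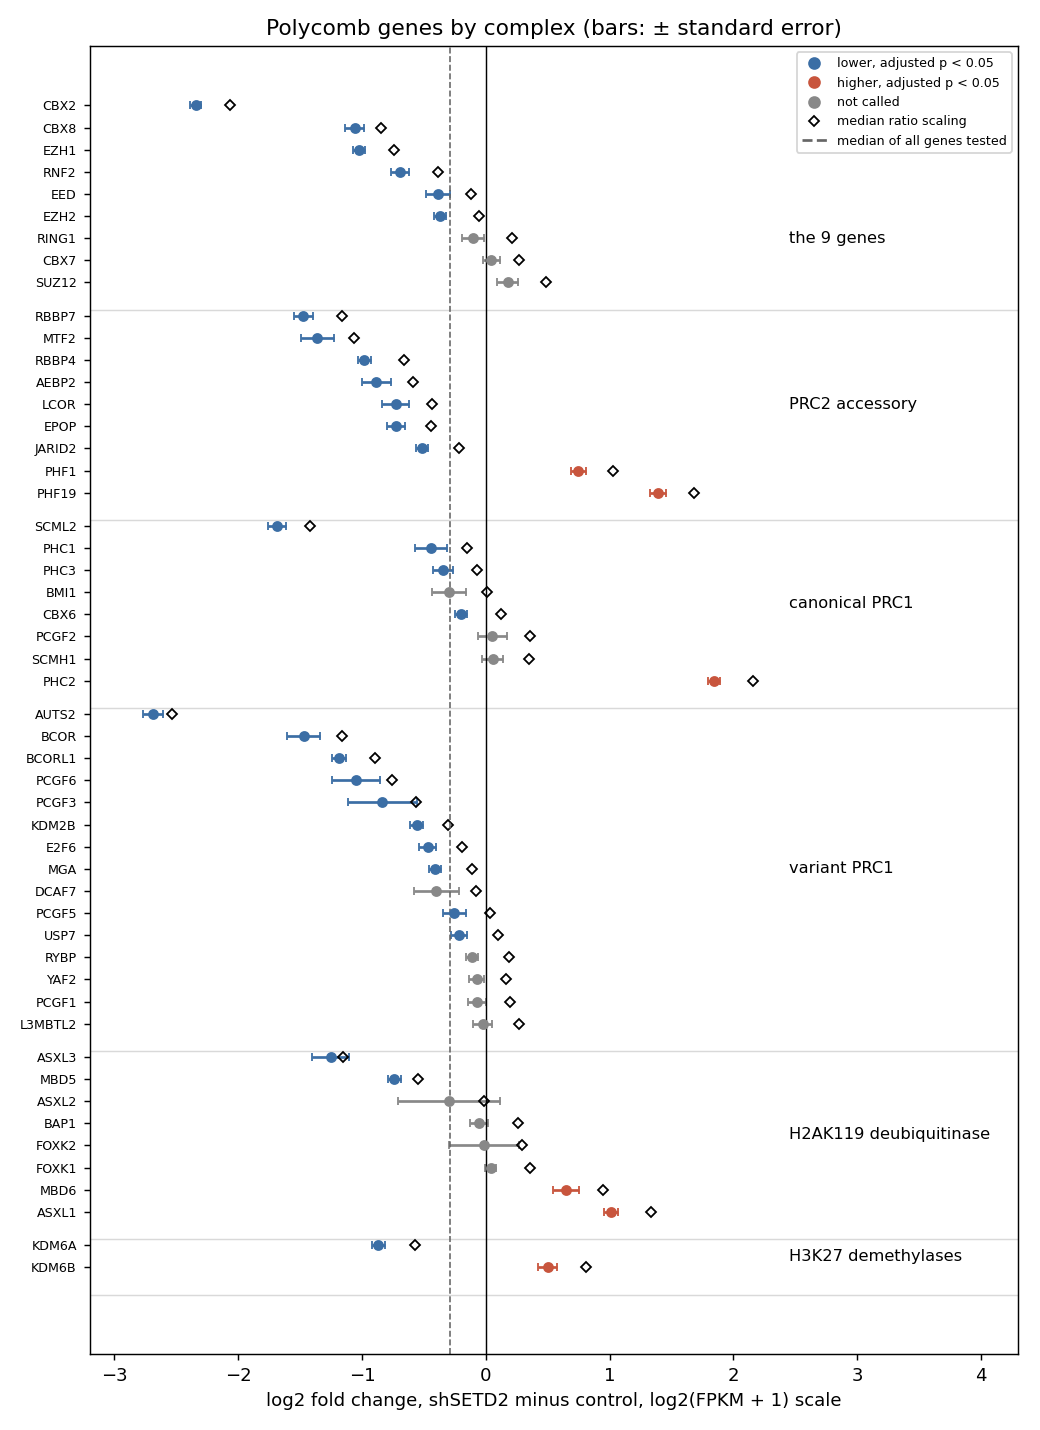
Log2 fold change, shSETD2 minus control, on the log2(FPKM + 1) scale, of the 9 Polycomb genes and 42 other Polycomb genes grouped by complex, with circles and bars for the estimate ± SE, blue for lower, red for higher and grey for not called, open diamonds for the estimate after median ratio scaling, and a dashed line at the median of all genes tested. The PRC2 accessory genes PHF19 and PHF1, the PRC1 gene PHC2, and ASXL1, MBD6 and KDM6B lie to the right of 0 in red. The group labelled PRC2 accessory also holds the core subunits RBBP4 and RBBP7.

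Of the other PRC2 subunits, which are the core subunits RBBP4 and RBBP7 and accessory ones, each of 9 genes tested was called. There were 7 lower and 2 higher, beside 51.8% and 26.8% of all genes tested (78.6% in either direction). The directions held after median ratio scaling. The accessory ones include the Polycomb-like proteins, which bind DNA and bring PRC2 to its sites, and these moved in opposite directions. PHF19 was at 4.06, 3.52 and 3.76 FPKM in control libraries, against 12.1, 10.9 and 11.6 in shSETD2 libraries, a rise of 1.39 ± 0.065 in log2 (SE, limma, adjusted p = 3.11e-06). PHF1, named after its values were seen because it is the other gene that rose, went from 4.01 ± 0.130 to 7.41 ± 0.430 FPKM (SD, n = 3 each, log2 0.75, adjusted p = 3.10e-05). MTF2 was at 16.4, 10.97 and 12.7 FPKM in control libraries, against 4.67, 4.52 and 4.40 in shSETD2 libraries, a log2 change of -1.36 ± 0.13 (SE, adjusted p = 1.03e-04). The ratio of MTF2 to PHF19, chosen after the values were seen, went from 3.51 ± 0.470 to 0.393 ± 0.0200 (SD, n = 3 each), with MTF2 the more abundant in control and PHF19 in shSETD2 libraries (exact permutation p = 0.1).

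The lowest fold change of these 9 genes was that of RBBP7, a histone-binding core subunit, at 29.8, 27.7 and 25.0 FPKM in control and 9.17, 8.70 and 9.90 in shSETD2 libraries (log2 -1.47 ± 0.078, SE, limma, adjusted p = 5.44e-06). The other such core subunit, RBBP4, was at 39.1 ± 1.72 and 19.3 ± 0.764 FPKM (SD, n = 3 each, log2 -0.98, limma, adjusted p = 4.53e-06). JARID2, which defines another subtype of PRC2, was at 11.1 ± 0.499 and 7.43 ± 0.0397 FPKM (SD, n = 3 each, log2 -0.52, adjusted p = 8.06e-05). After median ratio scaling its change was -0.21 (adjusted p = 6.64e-03).

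In canonical PRC1, 4 of 8 other genes were lower, 1 was higher and 3 were not called, beside 51.8% lower and 26.8% higher over all genes tested. After median ratio scaling 1 was lower and 3 higher, beside 39.1% and 37.1%. PHC2, a polyhomeotic subunit that clusters PRC1, was at 12.3, 11.3 and 11.1 FPKM in control and 44.3, 42.7 and 44.9 in shSETD2 libraries, the largest rise of the Polycomb genes tested (log2 1.84 ± 0.050, SE; limma, adjusted p = 3.00e-07). SCML2 was at 9.33 ± 0.686 and 2.21 ± 0.184 FPKM (SD, n = 3 each, log2 -1.69, adjusted p = 2.25e-06). The PCGF partners of canonical PRC1 were not called. BMI1 was at 13.2, 13.1 and 9.11 FPKM in control and 8.85, 9.67 and 9.34 in shSETD2 libraries, with the third control library inside the shSETD2 range (log2 -0.30 ± 0.14, SE; adjusted p = 0.0871), and without control replicate 3 it was at -0.46 and passed (adjusted p = 9.03e-04). PCGF2 was at 10.001 ± 0.912 and 10.5 ± 1.67 FPKM (log2 0.05, adjusted p = 0.699), and median ratio scaling gave 0.36 (adjusted p = 0.0320).

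Variant PRC1 lacks a CBX subunit and carries RYBP or YAF2 in its place. Of its 15 genes 10 were lower, 0 higher and 5 not called, beside 51.8% lower and 26.8% higher over all genes tested. Median ratio scaling gave 6 lower and 4 higher, beside 39.1% and 37.1%. AUTS2, a subunit of a variant PRC1 linked to activation, was at 5.44, 6.63 and 5.46 FPKM in control and 0.0501, 0.0676 and 0.0646 in shSETD2 libraries, a log2 change of -2.69 ± 0.081 (SE, limma, adjusted p = 4.83e-07). On the log2(FPKM + 1) scale AUTS2 was the only Polycomb gene tested with a lower log2 fold change than CBX2. With a pseudocount of 0.01 the low gene ASXL3 also lay below it, at -5.42 against -2.78 for CBX2. At the other end L3MBTL2 was at 6.82 ± 0.504 and 6.68 ± 0.504 FPKM (SD, n = 3 each, log2 -0.03, adjusted p = 0.760), while median ratio scaling gave 0.27 (adjusted p = 0.0152).

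Genes that act against Polycomb moved both ways. BAP1, which removes ubiquitin from histone H2A, was at 14.2, 15.8 and 17.5 FPKM in control and 15.1, 15.3 and 15.1 in shSETD2 libraries, inside the control range (log2 -0.05 ± 0.074, SE; limma, adjusted p = 0.534). After median ratio scaling it was at 0.26 (adjusted p = 0.0171). Of its alternative partners ASXL1 rose from 14.8 ± 0.655 to 31.0 ± 1.87 FPKM (SD, n = 3 each, log2 1.01, adjusted p = 8.21e-06) and ASXL3 fell from 1.48 ± 0.490 to 0.0260 ± 0.0169 (log2 -1.25, adjusted p = 2.62e-04). In that list of 8 genes, 2 were higher, 2 lower and 4 not called, beside 26.8% higher and 51.8% lower over all genes tested. Median ratio scaling gave 4 higher and 2 lower, beside 37.1% and 39.1%. Of the 2 demethylases of the PRC2 mark, KDM6A fell from 10.05 ± 0.519 to 5.05 ± 0.128 FPKM (log2 -0.87, adjusted p = 1.08e-05) and KDM6B rose from 9.94 ± 0.422 to 14.5 ± 1.42 (log2 0.50, adjusted p = 9.22e-04). Their ratio, KDM6B to KDM6A, went from 0.991 ± 0.0742 to 2.87 ± 0.232 (SD, n = 3 each, exact permutation p = 0.1, chosen after the values were seen).

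The genes most like EZH2 over the 6 libraries, by the root mean square difference of log2(FPKM + 1) after each gene was centred on its own mean, were MTHFD1 (0.0207), AL590399.1 (0.0215) and LRRC1 (0.0219). MTHFD1, an enzyme of folate metabolism, was at 26.0, 24.6 and 24.4 FPKM in control and 18.7, 19.0 and 19.7 in shSETD2 libraries. For CBX2 they were CCND2 (0.0153), PCSK6 (0.0226) and ZNF853 (0.0266). CCND2, a D-type cyclin, was at 45.9, 45.9 and 45.0 FPKM in control and 8.17, 7.91 and 8.20 in shSETD2 libraries. With 3 libraries a group, the measure mainly picks genes with a like difference between the groups.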

How the data were processed

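RNA from 6 libraries labelled H1650, 3 control and 3 shSETD2, was sequenced from a stranded kit. Reads were mapped to hg19 (GRCh37) with HISAT2, named in the submitters' processing notes, and quantified with Ballgown. The authors deposited FPKM values per gene and library, so fragments are scaled to transcript length and library total. Tool versions, the gene filter and the use of strand are not given in the sources used here. A second table repeats these values and adds the authors' comparison (fold changes, p and q values), which was not used.

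Counts cannot be recovered: of 337 low genes, at most 3 (0.890%) shared one ratio between 2 control libraries within 0.1%. Depth and counting error are therefore unknown.

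Values were transformed to log2(FPKM + 1), and the 14068 genes whose mean reached 0.5 FPKM entered a linear model of 2 groups in limma 3.58.1 (R 4.3.3, lmFit, then eBayes with a trend). The p-values were adjusted by Benjamini-Hochberg over these genes. The fit was tested on simulated data with a log2 change of 1 in 200 of 14068 genes. It called 178 of these 200 and 9 of 13868 unchanged genes. In the real data 78.6% of genes were called, so the simulation does not bear on the scaling of the libraries. Fold changes on the log2(FPKM + 1) scale understate those of low genes. Ratios and shares within a library were compared by two-sided exact permutation. Replicate numbers were not used as a block, because the labels do not say that they pair libraries. Deviations of same-numbered libraries correlated at -0.02, 0.02 and -0.01. Alternatives were other pseudocounts, filters and scalings, other models and leaving out each library. The rule for naming genes took every one of the 9 genes, the highest and lowest fold change of each other list and some preset genes. The 9 genes and all lists were chosen with earlier results of these data known. Some genes of these lists, and planned CBX shares over a wider set of genes, are not reported here. Gene positions are those of the deposited table, exons come from GENCODE on GRCh37, and promoters from RefSeq. Tables and figures used Python 3.11.15, pandas 2.3.3, scipy 1.17.1 and matplotlib 3.10.9.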

Additional observations from a re-analysis of the deposited data

How the results depend on the processing

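Over the 9 genes, the ratio of EZH2 to EZH1, the CBX shares and the counts over the 9 genes, the other Polycomb genes and all genes, 295 of 318 alternative values kept their direction and their side of the threshold, or stayed within 1.5 times a count. Other filters and models left the fold change of a gene as it was, so under them only its call could change. EZH1, RNF2, CBX2 and CBX8 passed as lower under each alternative that gave them a value. Median ratio scaling moved the others, to -0.052 for EZH2, -0.12 for EED, 0.49 for SUZ12, 0.22 for RING1 and 0.26 for CBX7 on the log2 scale. It raised the number of the 9 genes that were higher from 0 to 2, and that of other Polycomb genes that were higher from 6 to 14. Quantile normalization gave -0.18 for EED, -0.22 for RING1, 0.41 for CBX7, 0.54 for the log2 ratio of EZH2 to EZH1, and differences in share of -37.0 points for CBX2 and 7.29 for CBX8, with 1 of the 9 genes higher. Upper quartile scaling gave 0.22 for SUZ12 and also 1 gene higher. A pseudocount of 1 on both genes gave a log2 ratio of EZH2 to EZH1 of 0.65. A mean FPKM of at least 5 left 7078 genes tested, of which 5647 were called (2401 higher and 3246 lower). That filter gave no value for CBX7 and CBX8, which are below it, or for EED. Leaving out each library in turn gave 0 to 1 of the 9 genes higher, and log2 fold changes of 0.11 to 0.24 for SUZ12 and -0.0062 to 0.089 for CBX7.

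Other named genes kept call and direction in 369 of 396 values. Those near 0 changed sign. Median ratio scaling gave 0.26 for BAP1, 0.0059 for BMI1, 0.12 for CBX6 and 0.27 for L3MBTL2. Quantile normalization gave -0.056 for E2F1 and 0.10 for L3MBTL2, and upper quartile scaling 0.019 for L3MBTL2. Leaving out a library gave -0.12 to 0.018 for BAP1, -0.0025 to 0.086 for CDKN2B (-0.00059 without shSETD2 replicate 3), -0.079 to 0.011 for L3MBTL2 (0.0066 without shSETD2 replicate 3) and -0.055 to 0.15 for PCGF2 (-0.0078 without control replicate 2). With the replicate number as a block 10976 genes were called, and 6 of the 9 genes were lower and 0 higher, with adjusted p (limma) of 2.83e-03 for EZH2, 1.44e-04 for EZH1, 0.0171 for EED, 7.77e-04 for RNF2, 2.36e-05 for CBX2 and 4.62e-04 for CBX8. The block took SETD2 (adjusted p = 0.0156) and MKI67 (adjusted p = 2.01e-03) past the threshold, and the numbers are not shown to pair libraries. The causes of these shifts were not tested. With depth unknown, small changes of genes near 1 FPKM rest on the spread of 3 libraries alone.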

Other observations

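Genes known from other work as targets of Polycomb repression were mostly lower in shSETD2 libraries. Whether Polycomb represses them in these cells was not tested. Of 15 such genes written in a list, 14 were listed and 12 tested, of which 9 were lower, 1 higher and 2 not called, with a median log2 fold change of -1.57 beside -0.29 over all genes tested, where 51.8% were lower and 26.8% higher. Median ratio scaling gave 9 lower and 3 higher, beside 39.1% and 37.1% of all genes tested. FOXC1, a developmental transcription factor, was at 64.6, 67.2 and 68.8 FPKM in control and at 1.79, 2.19 and 2.33 in shSETD2 libraries (log2 -4.45, limma, adjusted p = 5.10e-08). CDKN2A, the tumour suppressor that Polycomb silences in dividing cells, was at 17.5, 16.4 and 20.6 FPKM in control and at 6.16, 7.19 and 5.01 in shSETD2 libraries (log2 -1.43, adjusted p = 7.79e-05). Its neighbour CDKN2B was at 1.95, 2.12 and 2.04 against 1.85, 2.23 and 2.22 FPKM, with overlapping groups (log2 0.03, adjusted p = 0.731), and passed as higher after median ratio scaling, at 0.25 (adjusted p = 0.0163), and quantile normalization, at 0.38 (adjusted p = 2.57e-03). PAX6, a developmental transcription factor, was the gene that was higher, from 1.76 ± 0.115 to 2.58 ± 0.264 FPKM (SD, n = 3 each, log2 0.37, adjusted p = 3.48e-03).

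EZH2 is known to rise with genes of the dividing cell. A list of 21 cell cycle genes was tested, which also holds RB1 and CDKN1A, genes that restrain the cycle. Of the 21, 11 were lower, 5 higher (CDKN1A among them) and 5 not called, with a median log2 fold change of -0.17. Over all genes tested the values were the same 51.8%, 26.8% and -0.29. After median ratio scaling 6 of the list were lower and 8 higher, beside 39.1% and 37.1% of all genes tested. MKI67, a marker of cycling cells, was at 21.6, 39.96 and 46.7 FPKM in control and at 30.05, 63.7 and 62.0 in shSETD2 libraries, a wide overlap (log2 0.51, limma, adjusted p = 0.264). It was 0.18 without control replicate 1 and 0.85 without shSETD2 replicate 1, and passed with the replicate number as a block (adjusted p = 2.01e-03). E2F1 was at 26.1, 25.8 and 26.1 against 28.3, 27.8 and 31.5 FPKM (log2 0.16, adjusted p = 0.0335), with the direction turned after quantile normalization. Without control replicate 1, 2 or 3 or shSETD2 replicate 3, E2F1 did not pass (adjusted p = 0.0739, 0.0846, 0.0724 and 0.0610). MCM3, of the replication helicase, fell from 76.3 ± 2.25 to 37.8 ± 2.41 FPKM (log2 -0.996, adjusted p = 6.39e-06). CDKN1A, an inhibitor of the cell cycle, rose from 14.7 ± 0.355 to 113 ± 6.07 FPKM (SD, n = 3 each, log2 2.86, adjusted p = 5.42e-08).

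CBX2 and CBX8 lie side by side on chromosome 17, with 4148 bases between them in GRCh37. Both were lower without overlap between the groups, a state shared by 53% of all genes tested. A link to their position was not tested.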
